A study of Mus musculus with 7 samples.

Results

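Regulatory T cells are CD4+ T cells that restrain other T cells, and they accumulate in many carcinomas, pancreatic ductal adenocarcinoma (PDA) among them. Their program is set by the transcription factor FOXP3, acts with the Ikaros family factors Helios and Eos, depends on interleukin-2 (IL-2) taken up through the high-affinity IL-2 receptor, and is tuned by costimulatory receptors of the TNF receptor and CD28 families. The 9 genes examined here are known from that program: *Foxp3*, *Il2ra* (CD25), *Ikzf2* (Helios), *Ikzf4* (Eos), *Tnfrsf4* (OX40), *Tnfrsf9* (4-1BB), *Tnfrsf18* (GITR), *Ccr8* and *Icos*. They were found by an exact match of their names in the deposited table, which gave 9 of its 38026 genes. Activated conventional T cells, natural killer (NK) cells and other cells use several of these genes too, so the name of the group is not a measurement of the cell that made the RNA.

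RNA from 7 subcutaneous tumors was sequenced. All tumors were grown from PDA cells of line 1242, which came from a genetically engineered mouse with a PDA tumor. They were untreated and were taken 2 weeks after the cells had been placed in C57BL/6 mice, whose age the labels do not give. The cells of every tumor had received Cas9 from a lentiviral vector, with a scrambled guide RNA in the control tumors (sgScramble, n = 4, replicates 1 to 4) or a guide RNA against *Krt19* in the others (sgKrt19, n = 3, replicates 5, 6 and 8). Both groups thus share the driver alleles of the line and Cas9, and all tumors rest on 1 cancer cell line. The labels do not say which guide was used, or whether the cells were a pool or a clone, so an effect of the guide or clone cannot be told apart from that of the loss of *Krt19*. Each tumor is 1 library and 1 replicate, and p-values measure the spread between these libraries.

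Normalized read counts are used throughout, meaning the reads of a gene after division by its library's size factor. Depth was 40781199 to 44972100 reads per library, and 3 reads, taken as the floor of detection, correspond to a value of 2.74 to 3.47. *Krt19* was 17841 to 27618 in sgScramble tumors and 1606 to 2470 in sgKrt19 tumors, so every library matched its label. The summed value of 5 skeletal muscle genes (*Ckm*, *Acta1*, *Myh4*, *Actn2* and *Tnnt3*) was 26.9 to 40.8 in sgScramble 1, 2 and 4, 1627 in sgScramble 3 and 12611 to 20206 in the sgKrt19 libraries. Muscle transcripts thus separated the groups, and sgScramble 3 stood apart from the other controls. The log2 fold changes of the 9 genes are therefore given with and without sgScramble 3. Leaving it out does not take muscle out of the comparison, because every sgKrt19 library held more. Levels per kilobase, plain ratios to other genes and correlations include sgScramble 3. A part of muscle RNA in the differences between the groups was not tested and cannot be told apart from that of the group.

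The comparison asks whether genes of regulatory T cells differed in tumors whose cancer cells had lost *Krt19*, in which the study looked for T cells. *Icos*, *Ccr8*, *Ikzf4*, *Il2ra*, *Tnfrsf18* and *Tnfrsf4* rose, *Ikzf2* fell, and *Foxp3* and *Tnfrsf9* did not pass the test. All 9 genes passed the filter on low values (at least 10 in at least 3 libraries) and were tested with limma on log2(value + 1), whose p-values were adjusted over all 21322 genes tested. The test called 7 of the 9 genes at an adjusted p under 0.05, where 34% of all tested genes were called. It called 6 of them higher in sgKrt19 tumors (17.9% of all tested genes) and 1 lower (16%). The groups did not overlap for the same 7 genes, against 41.1% of all tested genes. edgeR on recovered reads called 7 of the 9, against 33.7%. The median log2 fold change was 0.99 over the 9 genes and 0.0072 over all tested genes. Without sgScramble 3 the test still called 7 of the 9. In bulk tumors a change in the number of cells of a type and a change in RNA per cell cannot be told apart.

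**Figure D1:**
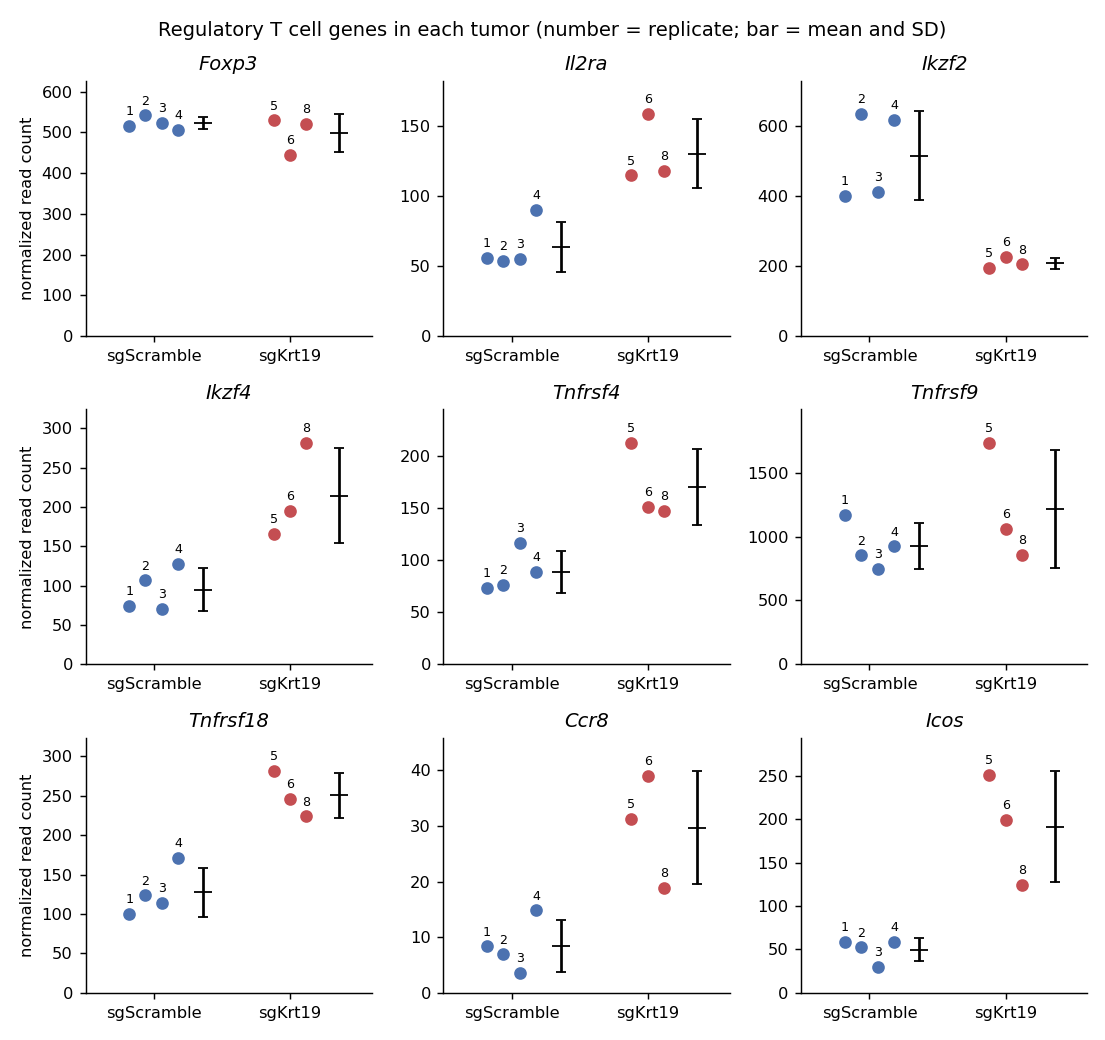
Normalized read counts (vertical axes, each from 0) of the 9 genes in every tumor, with sgScramble in blue, sgKrt19 in red, the replicate number above each point, and the mean with its SD as a black bar. The groups are apart for 7 genes, with *Ikzf2* alone lower in sgKrt19 tumors, and overlap for *Foxp3* and *Tnfrsf9*.

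*Foxp3* (ENSMUSG00000039521.13, chromosome X, 7573644 to 7595245, plus strand, GRCm38) encodes the factor that defines the regulatory lineage. Its values were 516, 541, 523 and 506 in sgScramble 1 to 4 and 529, 445 and 520 in sgKrt19 5, 6 and 8. The sgKrt19 libraries 5 and 8 lay within the control range and library 6 lay below it, so the groups overlapped. The means were 522 ± 14.8 (SD, n = 4) and 498 ± 46.2 (SD, n = 3), with a change of −0.07 on the log2 scale (SE 0.118, adjusted p = 0.660 by limma). The 95% interval of the difference, −0.33 to 0.19 on the log2 scale, leaves room for small changes either way and does not reach the size of any of the 7 changes that passed the test. The level rests on 445 to 573 reads per library. Without sgKrt19 6 the log2 fold change was 0.0079, and without sgScramble 3 it was −0.07.

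The exons of *Foxp3* overlap those of several other genes. Of its 4577 exon bases, 590 (12.9%) also belong to exons of *Ccdc22* on the opposite strand, 373 (8.15%) to *Gm36995* and 266 (5.81%) to *Ppp1r3f*, both opposite too, and 853 (18.6%) to *Flicr* on the same strand. The kit named by the study keeps the strand of the RNA, but the sources used here do not say whether the counting used it, and without strand the reads on shared bases cannot be told apart. *Ccdc22*, which encodes a subunit of an endosomal sorting complex, had 1046, 1105, 1048 and 1037 in sgScramble tumors and 874, 797 and 861 in sgKrt19 tumors, and fell by 0.33 on the log2 scale (SE 0.1, adjusted p = 0.0296 by limma). *Flicr*, a noncoding RNA of the *Foxp3* locus, had 17.4 to 29.7 and 13.9 to 16.8, without overlap, but missed the threshold (adjusted p = 0.178, limma). *Ppp1r3f* had 229 to 385 and 222 to 266 (adjusted p = 0.293, limma), and *Cacna1f*, at 0.99 to 2.74 and 4.62 to 6.30, did not pass the filter. No tested gene of the neighbourhood was called higher. The part these overlaps had in the *Foxp3* value was not tested.

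Levels of different genes were compared only per kilobase of exon. In sgScramble tumors *Foxp3* stood at 114 ± 3.23 normalized reads per kilobase, above *Cd4* (19.1) and *Cd3e* (16.0), *Cd3g* (34.2) and *Cd3d* (37.8), which encode the CD3 chains of the T cell receptor complex, and below the receptor constant genes *Trac* (159), *Trbc1* (205) and *Trbc2* (367). In sgKrt19 tumors *Foxp3* stood at 109 ± 10.1 per kilobase, *Cd4* at 28.3, *Cd3e*, *Cd3g* and *Cd3d* at 96.9, 223 and 275, and *Trac*, *Trbc1* and *Trbc2* at 755, 1042 and 1728. By the means of these 7 genes, *Cd3g* and *Cd3d* changed places with *Foxp3*, and the other 5 kept their side of it. In sgKrt19 tumors *Cd3e*, at 96.9 ± 31.2 (SD, n = 3), overlapped *Foxp3* in mean ± SD, so their order there is not settled. The *Foxp3* means of the groups differed by less than the SD of the sgKrt19 tumors. Which cells made the *Foxp3* RNA was not measured.

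Among the 9 genes *Tnfrsf9* had the highest level per kilobase in sgScramble tumors, 339 ± 66.1, followed by *Foxp3*, *Tnfrsf18* (83.6 ± 20.3), *Tnfrsf4* (65.1 ± 14.6), *Ikzf2* (44.5 ± 10.9), *Ikzf4* (15.8 ± 4.58), *Icos* (14.5 ± 3.92), *Il2ra* (11.1 ± 3.10) and *Ccr8* (7.18 ± 3.997; SD, n = 4 throughout). Neighbours in that order overlapped in mean ± SD from *Tnfrsf18* through *Tnfrsf4* to *Ikzf2*, and again from *Ikzf4* to *Ccr8*. By their means, the genes from *Tnfrsf9* to *Ikzf2* stood above *Cd3e* (16.0), *Cd3g* (34.2) and *Cd3d* (37.8), and the genes from *Ikzf4* to *Ccr8* stood below them. *Tnfrsf4* and *Ikzf2* overlapped *Cd3d* in mean ± SD. Which cells made these RNAs was not measured. In sgKrt19 tumors the order was *Tnfrsf9* (447 ± 169), *Tnfrsf18* (164 ± 18.9), *Tnfrsf4* (125 ± 27.0), *Foxp3*, *Icos* (55.8 ± 18.6), *Ikzf4* (35.7 ± 10.1), *Ccr8* (25.3 ± 8.63), *Il2ra* (22.8 ± 4.25) and *Ikzf2* (18.0 ± 1.35; SD, n = 3). Here the overlaps ran from *Tnfrsf18* to *Foxp3* and from *Icos* to *Ikzf2*, and *Ikzf2* had gone from the fifth place to the last. The length used for *Ikzf4* is approximate, since its identifier carries a later version than the annotation.

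RefSeq promoter windows (GRCm38.p6, 250 bases before to 50 after a start site) were available for 6 of the 9 genes, in 8 windows. They were searched on both strands for motifs of factors known to act at these genes: STAT (TTCNNNGAA), AP-1 (TGANTCA), forkhead (TGTTTAC), RUNX (TGTGGT) and the NF-kappaB consensus. Of all 32851 windows, 8.30% held the STAT motif, 7.81% AP-1, 3.65% forkhead, 16.8% RUNX and 8.46% NF-kappaB. One of the 2 *Foxp3* windows, chrX:7580233-7580532 on the plus strand, held a STAT motif 139 bases before the start site, and it is shown because *Foxp3* is a target of the IL-2 receptor through STAT5. The capitals mark the motif.
Foxp3: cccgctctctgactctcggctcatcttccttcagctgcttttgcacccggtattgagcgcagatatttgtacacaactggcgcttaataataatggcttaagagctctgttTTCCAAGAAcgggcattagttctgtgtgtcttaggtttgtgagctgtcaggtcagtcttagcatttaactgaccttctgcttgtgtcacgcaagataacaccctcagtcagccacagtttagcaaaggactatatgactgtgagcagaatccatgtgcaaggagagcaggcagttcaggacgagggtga
The other *Foxp3* window held none of the 5 motifs. A match is a description of the letters and was not measured as a binding site.

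*Il2ra* (ENSMUSG00000026770.5, chromosome 2, 11642807 to 11693193, plus strand) encodes the alpha chain that gives the IL-2 receptor its high affinity. Its values were 55.7, 53.4, 54.8 and 90.0 in sgScramble tumors and 114, 158 and 118 in sgKrt19 tumors. sgScramble 4 stood above the other controls, and every sgKrt19 tumor stood above it. The means were 63.5 ± 17.7 and 130 ± 24.3, a ratio of 2.05 and a change of 1.04 on the log2 scale (SE 0.239, adjusted p = 0.00888 by limma). It was 0.99 without sgScramble 3. The promoter window of *Il2ra*, chr2:11642542-11642841 on the plus strand, held 2 overlapping NF-kappaB motifs, of which the second begins 200 bases before the start site. It is shown with these letters in capitals because NF-kappaB is a known inducer of *Il2ra*.
Il2ra: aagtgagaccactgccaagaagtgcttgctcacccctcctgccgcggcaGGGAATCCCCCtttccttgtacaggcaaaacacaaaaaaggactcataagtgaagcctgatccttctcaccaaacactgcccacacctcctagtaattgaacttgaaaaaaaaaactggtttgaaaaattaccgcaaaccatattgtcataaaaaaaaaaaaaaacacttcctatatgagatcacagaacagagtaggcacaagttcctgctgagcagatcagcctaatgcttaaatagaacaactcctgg
None of the other 4 motifs was found in it.

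The rest of the IL-2 pathway did not move as 1 group. Of 11 genes, all tested, 4 were called higher (17.9% of all tested genes), 2 lower (16%) and 5 not at all. Their median log2 fold change was −0.06. The other chains of the receptor, which NK cells and CD8+ T cells also carry, both rose: *Il2rb* had 302 to 464 in sgScramble and 1194 to 1522 in sgKrt19 tumors (log2 fold change 1.77, SE 0.160, adjusted p = 7.09e-05 by limma), and *Il2rg* had 409 to 614 and 1029 to 1311 (1.25, SE 0.158, adjusted p = 0.00039 by limma). *Il15*, a cytokine read by the beta and gamma chains, went from 247 to 270 up to 453 to 524 (0.90, SE 0.126). *Socs1*, a feedback inhibitor of cytokine signaling, went from 254 to 327 up to 720 to 1148 (1.57, SE 0.173). The transcription factors downstream of the receptor went the other way, *Stat5a* falling by 0.62 and *Stat5b* falling by 0.54 on the log2 scale, each without overlap of the groups. *Il2* itself had 136 to 199 and 162 to 248.5, which overlapped (adjusted p = 0.227, limma), and *Cish*, *Jak1*, *Jak3* and *Bcl2* did not pass the test either.

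*Ikzf2* (ENSMUSG00000025997.13, chromosome 1, 69531214 to 69687245, minus strand) encodes Helios, a zinc finger factor of regulatory T cells that is also used by other cells. Its values were 400, 634, 413 and 618 in sgScramble tumors and 195, 226 and 205 in sgKrt19 tumors. The controls fell into a lower pair (1 and 3) and a higher pair (2 and 4), and the 3 sgKrt19 tumors were close together below both. The means were 516 ± 127 and 209 ± 15.7, a ratio of 0.404 and a change of −1.27 on the log2 scale (SE 0.192, adjusted p = 0.00102 by limma). Without sgScramble 3 it was −1.37.

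*Ikzf4* (ENSMUSG00000002578.18, chromosome 10, 128630843 to 128645991, minus strand) encodes Eos, a partner of FOXP3 in repression. Its values were 74.3, 107, 70.3 and 128 in sgScramble tumors and 165, 195 and 281 in sgKrt19 tumors. All sgKrt19 tumors were above all controls. The means were 94.8 ± 27.5 and 214 ± 60.3, and the log2 fold change was 1.17 (SE 0.262, adjusted p = 0.00787 by limma), or 1.05 without sgScramble 3. The pair of regulatory T cell factors *Ikzf2* and *Ikzf4* thus changed in opposite directions in the same tumors. Of the other Ikaros family genes, *Ikzf1* (159 to 250 and 318 to 458; log2 fold change 0.91, SE 0.189) and *Ikzf3* (20.1 to 72.1 and 122 to 213; 1.84, SE 0.395), both broad lymphoid factors, were called higher. *Ikzf5* (790 to 873 and 702 to 780) did not pass the test (adjusted p = 0.214, limma), and 81.3% of its exon bases overlap *Pstk* on the opposite strand.

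The TNF receptor family was represented by 3 genes. *Tnfrsf4* and *Tnfrsf18*, neighbours on chromosome 4 (156013843 to 156016612 and 156026164 to 156028895, both plus strand), encode OX40 and GITR, costimulatory receptors that regulatory T cells carry at rest and other T cells gain on activation. *Tnfrsf4* (ENSMUSG00000029075.6) had 73.4, 76.1, 117 and 89.0 in sgScramble and 213, 151 and 147 in sgKrt19 tumors. The means of 88.8 ± 19.9 and 170 ± 36.8 gave a change of 0.93 on the log2 scale (SE 0.222, adjusted p = 0.0105 by limma). sgScramble 3, the control with muscle transcripts, was the highest of the controls for this gene, and without it the log2 fold change was 1.07. *Tnfrsf18* (ENSMUSG00000041954.18) had 100, 124, 114 and 172 in sgScramble and 281, 246 and 224 in sgKrt19 tumors. The means of 127 ± 31.0 and 250 ± 28.8 gave a change of 0.99 on the log2 scale (SE 0.202, adjusted p = 0.00500 by limma), or 0.95 without sgScramble 3. The 2 neighbours thus changed by similar amounts, each without overlap of the groups. Of the exon bases of *Tnfrsf18*, 27.2% are shared with *Gm16008* on the opposite strand, which had 83.6 to 179 in sgScramble and 112 to 139 in sgKrt19 tumors.

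*Tnfrsf9* (ENSMUSG00000028965.13, chromosome 4, 150914562 to 150946102, plus strand) encodes 4-1BB, a receptor gained by activated T cells and NK cells. Its values were 1169, 853, 745 and 923 in sgScramble tumors and 1733, 1060 and 855 in sgKrt19 tumors. sgKrt19 5 was the highest of all libraries, but 6 and 8 lay within the control range. The means were 923 ± 180 and 1216 ± 459, with a change of 0.35 on the log2 scale (SE 0.230, 95% interval −0.16 to 0.86, adjusted p = 0.253 by limma), which was not detectable against this spread. The value rests on single libraries: it was 0.065 without sgKrt19 5, 0.57 without sgKrt19 8 and 0.26 without sgScramble 3, and passed the test in none of these.

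Promoter windows are shown for *Tnfrsf9* and *Tnfrsf18* because they set a gene that missed the threshold beside one that rose. A window of *Tnfrsf9*, chr4:150927749-150928048 on the plus strand, held STAT (136 bases before the start site), 2 overlapping NF-kappaB motifs (from 43 bases before it), AP-1 (15 before) and RUNX (from base 11 of the transcript). The window of *Tnfrsf18*, chr4:156026072-156026371 on the plus strand, held STAT alone, 99 bases before the start site. Capitals mark the motifs.
Tnfrsf9: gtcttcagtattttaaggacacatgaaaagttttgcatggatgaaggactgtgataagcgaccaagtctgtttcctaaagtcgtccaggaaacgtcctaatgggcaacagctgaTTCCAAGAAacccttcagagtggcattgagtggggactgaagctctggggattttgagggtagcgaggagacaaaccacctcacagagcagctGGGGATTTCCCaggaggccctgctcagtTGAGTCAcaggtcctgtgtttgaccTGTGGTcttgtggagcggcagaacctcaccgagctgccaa
Tnfrsf18: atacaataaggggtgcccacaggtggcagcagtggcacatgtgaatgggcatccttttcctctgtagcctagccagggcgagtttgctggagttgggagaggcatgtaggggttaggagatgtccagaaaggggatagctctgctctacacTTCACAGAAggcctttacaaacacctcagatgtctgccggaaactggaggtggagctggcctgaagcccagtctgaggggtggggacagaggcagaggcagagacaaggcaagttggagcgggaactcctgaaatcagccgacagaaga
The STAT motif of this *Tnfrsf9* window and that of *Foxp3* have the same letters, TTCCAAGAA. A link between motifs and the changes of the genes was not tested. No motif of the 5 was found in the windows of *Tnfrsf4* and *Ccr8* or in the other *Tnfrsf9* window.

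The TNF receptors of T cells and the TRAF adaptors they signal through gave 8 further genes, all tested. Of them 4 were called higher (17.9% of all tested genes), none lower (16%) and 4 not at all. *Cd27*, a receptor of resting and memory lymphocytes, had 10.0 to 23.7 in sgScramble and 71.4 to 143 in sgKrt19 tumors (log2 fold change 2.49, SE 0.350, adjusted p = 0.000684 by limma). *Cd40* (0.85, SE 0.157), *Traf5* (0.70, SE 0.142) and *Traf1* (0.38, SE 0.101) also rose. *Tnfrsf14* (log2 fold change 0.88, adjusted p = 0.0534, limma), *Tnfrsf25* (−0.18, adjusted p = 0.703, limma) and *Traf3* (−0.39, adjusted p = 0.0506, limma) did not pass the test. A second entry with the symbol *Traf5* exists in the table, and the value given is that of the identifier in the annotation.

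*Ccr8* (ENSMUSG00000042262.5, chromosome 9, 120092114 to 120094906, plus strand) encodes a chemokine receptor carried by regulatory T cells within tumors. Its values were 8.36, 6.92, 3.65 and 14.8 in sgScramble tumors and 31.2, 39.0 and 18.9 in sgKrt19 tumors. The counts are low, 4 to 39 reads, and sgScramble 4 came near sgKrt19 8. The means were 8.44 ± 4.70 and 29.7 ± 10.1, and the log2 fold change was 1.78 (SE 0.444, adjusted p = 0.0130 by limma). Without sgKrt19 6 it was 1.56 and no longer passed (adjusted p = 0.0514 by limma), and without sgScramble 3 it was 1.48 and passed.

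*Icos* (ENSMUSG00000026009.14, chromosome 1, 60977927 to 61000320, plus strand) encodes a costimulatory receptor of the CD28 family, gained on activation and kept by regulatory T cells. Its values were 58.5, 52.4, 30.1 and 58.4 in sgScramble tumors and 251, 199 and 124 in sgKrt19 tumors. The lowest sgKrt19 tumor was still above the highest control by more than the range of the controls. The means were 49.9 ± 13.5 and 191 ± 63.8, a ratio of 3.84 and a change of 1.91 on the log2 scale (SE 0.304, adjusted p = 0.00135 by limma), the largest of the 9. Without sgScramble 3 it was 1.69.

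Genes related to *Icos* rose with it, where 17.9% of all tested genes were called higher. Of the CD28 family list, 3 of 3 were called higher: *Cd28*, the main costimulatory receptor (22.8 to 48.2 and 75.6 to 140; log2 fold change 1.70, SE 0.310), *Pdcd1*, which encodes the inhibitory receptor PD-1 (38.4 to 106 and 212 to 601; 2.53, SE 0.410), and *Btla*, another inhibitory receptor (26.9 to 48.2 and 69.3 to 101; 1.19, SE 0.273). *Ctla4*, the inhibitory receptor that regulatory T cells carry constantly, had 38.1, 39.5, 23.7 and 37.1 in sgScramble and 171, 132 and 62.0 in sgKrt19 tumors (1.69, SE 0.345, adjusted p = 0.00497 by limma). *Cd28*, *Ctla4* and *Icos* lie together on chromosome 1. For *Cd28* and *Ctla4* the table holds a second entry of the same symbol, which for *Ctla4* had 21.01 to 36.2 and 51.5 to 141.

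**Figure D2:**
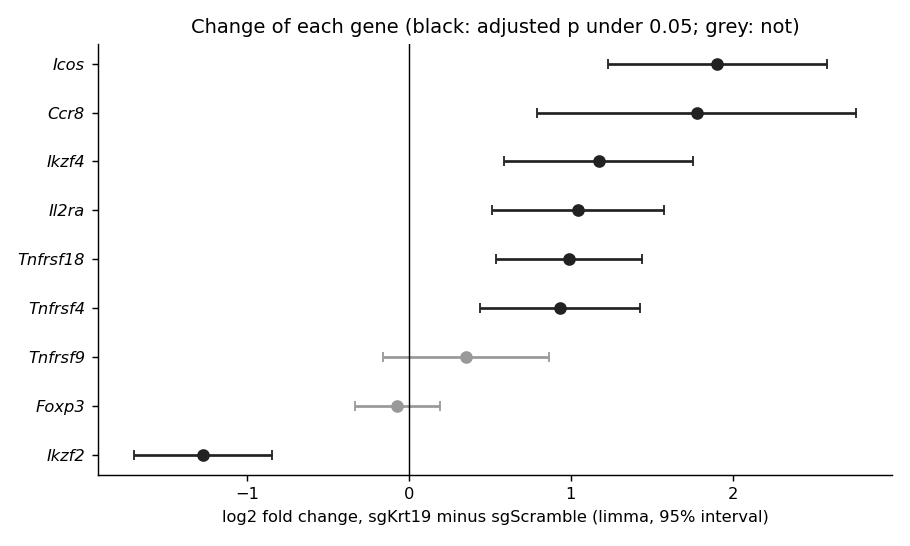
Log2 fold change of each of the 9 genes (sgKrt19 minus sgScramble, horizontal axis) from limma, with its 95% interval. *Icos* at 1.91 and *Ikzf2* at −1.27 are the ends of the range, and the intervals of *Foxp3* and *Tnfrsf9* include 0.

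Ligands of the receptors among the 9 genes were also measured. *Icosl*, the ligand of ICOS, had 191, 156, 215 and 197 in sgScramble and 436, 421 and 527 in sgKrt19 tumors, and rose (log2 fold change 1.28, SE 0.159, adjusted p = 0.000356 by limma). *Ccl1*, a ligand of CCR8, had 50.2, 11.9, 38.4 and 31.5 and then 121, 111 and 145 (2.06, SE 0.411, adjusted p = 0.0045 by limma). *Ccl8*, another ligand of mouse CCR8, had 1077 to 1591 and 1472 to 2517, which overlapped, with a log2 fold change of 0.60 (adjusted p = 0.0441 by limma). ICOS and CCR8 thus had both receptor and ligand transcripts called higher. The ligands of the TNF receptors did not pass the test: *Tnfsf4*, for OX40, had 60.3 to 82.2 and 63.0 to 75.1 (95% interval of the log2 difference −0.55 to 0.35), *Tnfsf9*, for 4-1BB, had 243 to 407 and 261 to 407 (−0.47 to 0.48), and *Tnfsf18*, for GITR, was at 1.85 to 7.31 and 3.15 to 13.9 and did not pass the filter.

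A list of 26 other genes known from regulatory T cells was examined too. It was chosen with earlier results of these data known, so its counts are not an independent check. Of these, 24 were tested, and 11 were called higher (17.9% of all tested genes), 2 lower (16%) and 11 not at all. The median log2 fold change was 0.51. Besides *Ctla4*, the genes that rose included *Izumo1r* (folate receptor 4; 1.76, SE 0.388, on only 5 to 34 reads), *Itgae* (CD103, an integrin that holds T cells in epithelium; 1.55, SE 0.227), *Il10* (an inhibitory cytokine; 3.95 to 8.22 and 16.0 to 22.1, on only 4 to 21 reads), *Batf* (a factor of tissue regulatory and effector T cells; 1.38, SE 0.242), *Ebi3* (a subunit of inhibitory cytokines; 1.01, SE 0.234) and *Nt5e* (CD73, an adenosine-making enzyme; 0.95, SE 0.138). The 2 that fell were *Nrp1* (868 to 1562 and 449 to 512; falling by 1.24, adjusted p = 0.000801 by limma) and *Maf* (924 to 1174 and 622 to 720; falling by 0.58). *Nrp1* encodes neuropilin-1, which with Helios has been used to mark regulatory T cells from the thymus, and is also carried by vessels and other cells. *Nt5e* stood at 425 normalized reads per kilobase in sgScramble tumors, above *Cd3e* (16.0), *Cd3g* (34.2) and *Cd3d* (37.8). Which cells made the *Nt5e* RNA was not measured.

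Of 18 genes for factors known to act on *Foxp3*, all tested, 3 were called higher, 3 lower and 12 not at all, with a median of −0.09. The 6 called genes are a share near the 34% of all tested genes, so the count is not a result about this list, and its members are given as single genes. *Tcf7*, a factor of resting and memory T cells that other cells use too, fell by 1.49 on the log2 scale, from 581 to 712 down to 208 to 243. *Tet2*, which demethylates DNA, fell by 0.78, and *Smad3*, which carries TGF-beta signals, fell by 0.41. *Satb1* (1.21, SE 0.241), *Nr4a3* (0.82, SE 0.271) and *Runx3* (0.63, SE 0.199) rose.

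**Figure D3:**
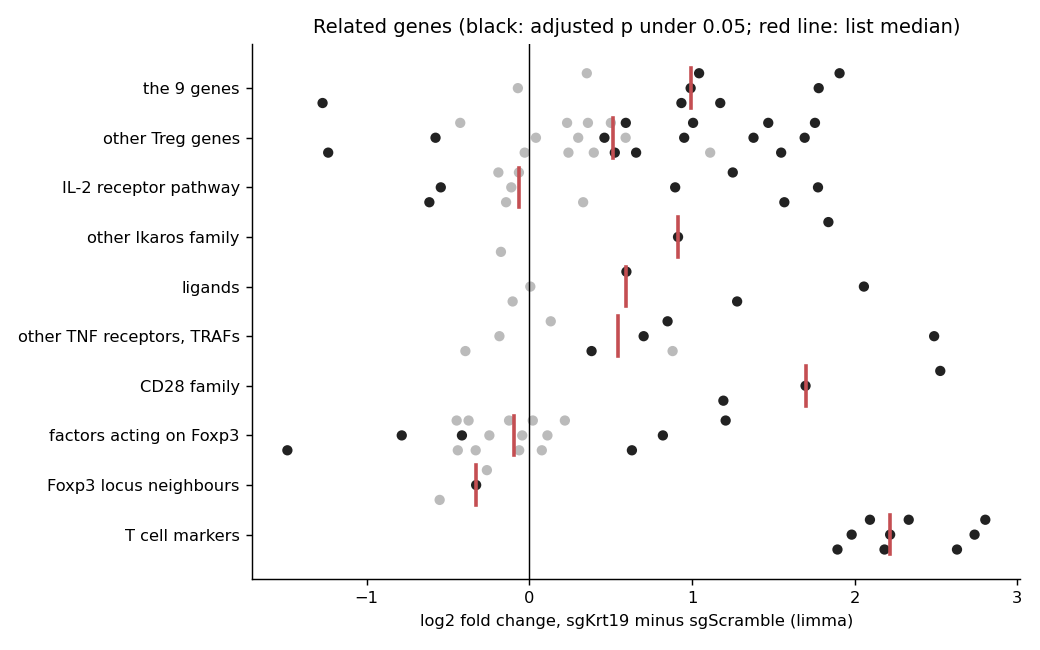
Log2 fold change (sgKrt19 minus sgScramble, horizontal axis) of every tested gene of the 9 and of 9 related lists, with genes at an adjusted p under 0.05 in black, others in grey, and the list median as a red line. The T cell markers have the highest median, 2.22, and the genes of the IL-2 receptor pathway and of factors acting on *Foxp3* lie on both sides of 0.

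Markers of the cells that could hold these transcripts were examined beside the 9 genes. Across all tested genes, 17.9% were called higher and 16% lower. All 9 T cell markers were called higher, and their summed value was 867 to 1377 in sgScramble and 3615 to 6519 in sgKrt19 tumors. Of the co-receptors (sums 191 to 430 and 1406 to 2633), *Cd8a* and *Cd8b1* rose, and *Cd4*, which regulatory T cells carry, had 68.7, 56.3, 83.1 and 99.2 in sgScramble and 151, 100 and 90.3 in sgKrt19 tumors (log2 fold change 0.56, 95% interval −0.01 to 1.13, adjusted p = 0.116, limma). All 6 cytotoxic genes were called higher (sums 556 to 950 and 3939 to 4804), as were 3 of 5 NK cell genes (205 to 311 and 699 to 760), 2 of 4 tested genes of type 2 innate lymphoid cells (413 to 633 and 555 to 821), 3 of 3 tested neutrophil genes (335 to 482 and 929 to 1027), 3 of 4 epithelial genes (113486 to 149308 and 234269 to 245862), 2 of 3 endothelial genes (2140 to 3231 and 3639 to 3883), 1 of 4 dendritic cell genes (256 to 319 and 352 to 368), *Ptprc* (CD45, 789 to 1195 and 1882 to 2416) and all 5 muscle genes. *Mrc1* was the 1 of 4 macrophage genes called, lower (sums 6336 to 9200 and 5732 to 7299), and no mast cell (338 to 1012 and 769 to 938), fibroblast (59849 to 146142 and 74053 to 85257) or skin keratinocyte gene (157 to 218 and 165 to 251) was called. The NK cell genes *Ncr1* and *Klrb1c* overlapped between the groups and were not called (adjusted p = 0.197 and 0.0525, limma). *Il5* and *Il13*, of the type 2 innate lymphoid list, did not pass the filter, with at most 7 and 20 reads. Both were lower in sgKrt19 tumors without overlap (means 5.37 and 1.42 for *Il5*, 10.5 and 2.09 for *Il13*). The calls in these lists thus do not measure cell numbers. The part the cells of all these lists had in the changes of the 9 genes was not tested.

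Because T cell transcripts rose, each gene was also set against the CD3 transcripts of its own library, as its log2(value + 1) minus the mean of the same for *Cd3d*, *Cd3e* and *Cd3g*. On this scale all 9 genes had a lower mean in sgKrt19 tumors. The CD3 genes rose by 2.63 to 2.80 on the log2 scale, while the median change of all tested genes was 0.0072. A gene that rose less than the CD3 genes falls on this scale, so a fall is not particular to the 9 genes. The share of all tested genes that fell or did not overlap on it was not measured. *Foxp3* was 2.24, 2.41, 3.40 and 3.13 in sgScramble and −0.26, −0.47 and 0.73 in sgKrt19 tumors, a difference of −2.79 between the means. *Ikzf2* had the largest difference, −3.99, from 1.87 to 3.42 in sgScramble to −1.69 to −0.60 in sgKrt19 tumors. *Tnfrsf9* differed by −2.37, *Tnfrsf4* by −1.79, *Tnfrsf18* by −1.73 and *Il2ra* by −1.68. *Ccr8* and *Icos* came nearest to keeping pace with the CD3 genes, at −0.94 and −0.82. For these 8 genes the groups did not overlap, which is not read as a result about them because the share of all genes was not measured. The exact two-sided permutation test gave p = 0.0571 for each. That is the smallest p this test can give over the 35 assignments of 7 libraries, so it cannot pass 0.05 here. *Ikzf4* differed by −1.55 with overlap (exact permutation p = 0.114). Without sgScramble 3 the differences ran from −3.89 for *Ikzf2* to −0.84 for *Icos*, with *Foxp3* at −2.59 and *Tnfrsf4* at −1.45. With the constant genes *Trac*, *Trbc1* and *Trbc2* in place of the CD3 genes, all 9 differences were again below 0 but nearer to it, at −2.32 for *Foxp3*, −1.07 for *Ikzf4*, −0.47 for *Ccr8* and −0.34 for *Icos*. With CD45 (*Ptprc*) as the reference in place of the CD3 genes, *Ccr8* and *Icos* turned to 0.59 and 0.72. *Ikzf2* (−2.46), *Foxp3* (−1.26) and *Tnfrsf9* (−0.84) stayed below 0. The differences of *Tnfrsf4* (−0.26), *Tnfrsf18* (−0.20), *Il2ra* (−0.15) and *Ikzf4* (−0.02) were small, so most of their fall depended on the reference.

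As plain ratios, there were 1.51, 1.73, 3.52 and 2.84 normalized *Foxp3* reads for each read of the 3 CD3 genes together in sgScramble tumors, and 0.265, 0.235 and 0.535 in sgKrt19 tumors. The CD3 sum was 342, 313, 149 and 178 in the former and 2000, 1897 and 971 in the latter. *Tnfrsf9* went from 2.72 to 5.18 per CD3 read down to 0.559 to 0.880. *Icos* stayed closest, at 0.167 to 0.328 and 0.105 to 0.128. These ratios depend on gene length and are compared only between libraries. For *Foxp3* the numerator stayed near its control level while the CD3 sum was higher in every sgKrt19 tumor.

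**Figure D4:**
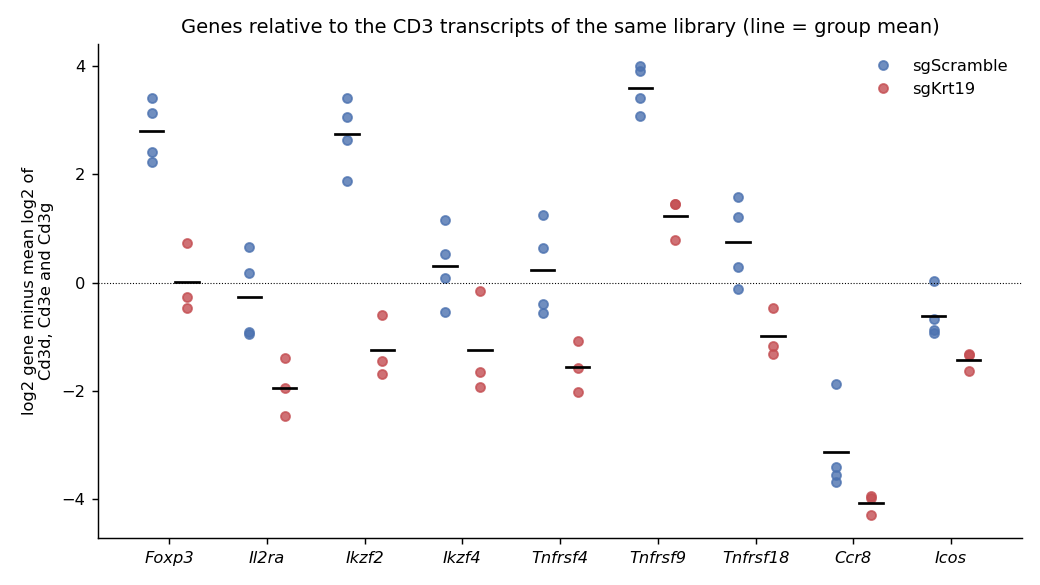
Each of the 9 genes relative to the CD3 genes of its library (vertical axis, log2 difference), with sgScramble in blue, sgKrt19 in red and a line at each group mean. The sgKrt19 means lie below the sgScramble means for all 9 genes, with differences from −3.99 for *Ikzf2* to −0.82 for *Icos*, and *Ikzf4* is the gene whose groups overlap.

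The patterns over the 7 libraries were last set beside those of the 144 tested genes of all lists, by Pearson's r of log2(value + 1), a description over points that share the 2 groups. *Icos* was most like *Cd28*, *Ctla4* and *Cd27* (each 0.98), and *Ccr8* most like *Cd28* (0.98), *Ptprc* (0.97) and *Il2rg* (0.96). *Il2ra* was most like *Btla* (0.97), *Ikzf1* and *Entpd1* (each 0.96), *Tnfrsf18* most like *Cd40* (0.97), *Cdh1* (0.96) and *Btla* (0.95), and *Ikzf4* most like *Prf1*, *Socs1* (each 0.94) and *Tnfrsf14* (0.91). *Tnfrsf4* was most like the muscle genes *Tnnt3* (0.96), *Actn2* and *Acta1* (each 0.95), whose levels are given above. *Ikzf2* was most like *Nrp1* (0.97), *Tet2* and *Stat5b* (each 0.96), all lower in sgKrt19 tumors. *Tnfrsf9* had no such close partner, with *Cd83* (0.78), *Ctla4* (0.76) and *Izumo1r* (0.73) at the top. *Foxp3* had the weakest, with its overlapping neighbour *Ccdc22* first (0.63), then *Nr4a1* (0.62) and *Tnfrsf25* (0.60). Among the 9 genes, *Foxp3* had an r of −0.66 to 0.33 with the others.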

How the data were processed

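Bulk RNA-seq libraries were made by the study from RNA of individual subcutaneous tumors with an Illumina TruSeq kit. The deposited table lists 38026 genes in 7 columns, 1 for each tumor, and holds a signal: reads per gene that the authors had divided by a size factor for each library. The submitters' processing notes name the build mm10. The aligner, the counter and the annotation are not given in the sources used here, nor is a batch or date. Dividing by the worth of 1 read returned whole reads, within 0.1, for 100% of values in every library. Depth was 40781199 to 44972100 reads per library, and the floor of 3 reads covers counting error only.

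Genes that reached a value of 10 in 3 or more libraries entered limma 3.58.1 (lmFit and eBayes with trend, group as the only term, R 4.3.3) on log2(value + 1), adjusted by the Benjamini-Hochberg method over all genes tested, and called at an adjusted p under 0.05. Changes of low genes are understated by the pseudocount of 1. The study states no test for these libraries. Alternatives were edgeR 4.0.16 and DESeq2 1.42.0 on the recovered reads, other scalings, pseudocounts, filters and variance models, and leaving out each library. The fitting script was tested on simulated data. GENCODE M21 (GRCm38), which holds 37167 (97.74%) of the identifiers in the same version, gave positions and exon lengths. Promoters came from RefSeq.

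The 9 genes, the lists of related genes and cell type markers, and the tests were chosen with earlier results of these data known. Named are the 9 genes, *Krt19*, genes of the lists that passed the threshold or lay at the ends of a list, all genes of the ligand, Ikaros, CD28 and *Foxp3* locus lists, and the 3 list genes most like each of the 9. *Cd4*, *Cd3d*, *Cd3e*, *Cd3g*, *Il2*, *Cish*, *Jak1*, *Jak3*, *Bcl2*, *Il5*, *Il13*, *Ncr1* and *Klrb1c* are named beside these, chosen after their values were seen. So are genes that overlap the exons of a named gene.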

Additional observations from a re-analysis of the deposited data

Results flagged for a closer look

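Within the 4 sgScramble libraries, single values that stood far from the other 3 (a gap to the nearest value that is large for the range of the group, at a limit that chance passes in about 1 of 20 groups) were searched among 154 values, and 11 (7.14%) were found. Of the 9 genes, *Il2ra* was one, at 90.0 in sgScramble 4 with the next control at 55.7. The position of *Ccr8* relative to the CD3 genes was another, at −1.87 in sgScramble 4 with the next control at −3.41, so the control that was highest for *Il2ra* was also highest for *Ccr8*. *Tnfsf4*, the ligand of OX40, was 60.3 in the same tumor, with the next control at 80.0. *Ctla4* was 23.7 in sgScramble 3 (next 37.1) and *Gzmb* was 252 in the same tumor (next 460), whereas *Cd5* was 44.6 in sgScramble 1 (next 32.0).

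The other 5 values were the muscle genes of sgScramble 3. There *Acta1* was 934, *Tnnt3* 294, *Myh4* 199, *Ckm* 141 and *Actn2* 58.5, while in the other controls they were at most 26.9, 9.27, 0.93, 3.71 and 0.93.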

How the results depend on the processing

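The 7 genes called among the 9 were 6 or 7 in number under every alternative, 6 with a filter at 50, which leaves *Ccr8* untested, and 6 without sgKrt19 replicate 6. *Icos*, *Ikzf2*, *Ikzf4*, *Il2ra*, *Tnfrsf18* and *Tnfrsf4* were called in 17 of 17 alternatives and *Ccr8* in 15 of 16. Leaving out 1 library each gave 1.48 to 2.07 for *Ccr8* (1.56, not called, without sgKrt19 replicate 6), −0.12 to 0.0079 for *Foxp3*, 0.065 to 0.57 for *Tnfrsf9*, −0.16 to 0.16 for *Tnfsf9* and −0.56 to 0.073 for *Tnfrsf25*, and *Foxp3*, *Tnfrsf9*, *Tnfsf9* and *Tnfrsf25* were called in none of these. *Tnfsf9*, at 0.01, was −0.017 with edgeR, −0.014 with DESeq2, −0.21 with library size only and −0.0089 with TMM. Against *Ptprc* in place of the CD3 genes, *Ccr8* was 0.59 and *Icos* 0.72, and against the receptor constant genes they were −0.47 and −0.34. Scaling by library size only moved the median of all genes to −0.21 and the share of calls that were higher from 52.8% (3820 higher, 3420 lower) to 27.5% (2177 and 5727), while 6 of the 9 genes were still called higher and 1 lower, and *Foxp3* stood at −0.29 against that median. No paired analysis was possible because the groups share no replicate numbers. Depth limits *Ccr8* most, with 4 to 39 reads.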
